A study of Mus musculus with 4 samples.

Results

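The genes described here are 9 regulators of cell-cycle arrest and senescence in mouse chondrocytes: Cdkn2a, Cdkn2b, Cdkn1a, Cdkn1b, Cdkn1c, Trp53, Mdm2, Lmnb1 and Ccnd1. They were taken by name from 21883 protein-coding genes of the RefSeq annotation, and every ATAC-seq peak in or within 50 kb of one of them was collected. This gave 425 of the peaks of 4 libraries, which fell into 160 of the 170558 sites on the reference chromosomes. A site is a run of peaks that overlapped by at least 1 bp in any of the libraries. Of the 160 sites, 10 lie within 50 kb of both Cdkn2a and Cdkn2b and were counted once.

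ATAC-seq cuts and tags open chromatin with the Tn5 transposase, so that a pile of sequenced fragments marks an accessible region. All chondrocytes came from C57BL/6 mice, from cartilage of the knee taken 0 to 4 days after birth, for which the labels name no transgene or drug, and were grown in DMEM/F12 with 10% fetal bovine serum. Passage 0 (P0) cells were primary cultures kept for under 24 h, and passage 8 (P8) cells had been split repeatedly, each time after the cell number had doubled, as a model of dedifferentiation. Each passage had 2 libraries, called A and B here because the peak lists do not tie them to a replicate number. The labels do not say whether the libraries of a passage came from separate animals, so the spread between them may be technical. The P0 cells had scarcely been in culture, so passage number and time in culture cannot be told apart.

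Cells leave the cycle when inhibitors of cyclin-dependent kinases (CDKs) keep the retinoblastoma protein active. The INK4 proteins, encoded by Cdkn2a and Cdkn2b, bind CDK4 and CDK6, whereas the CIP/KIP proteins, encoded by Cdkn1a, Cdkn1b and Cdkn1c, bind a wider range of cyclin-CDK complexes. Cyclin D1 (Ccnd1) activates CDK4 and CDK6, p53 (Trp53) induces Cdkn1a, and Mdm2 targets p53 for degradation. Loss of lamin B1 (Lmnb1) and gain of p16Ink4a from Cdkn2a are widely used marks of senescent cells.

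The starts of Cdkn2a and Cdkn1a are shown because each gene has a pair of RefSeq starts. That of Mdm2 is shown as an example of a start with lower values in both P8 libraries. The same held at the starts of Cdkn2b and Trp53, which are not shown. The upstream start of Cdkn2a gives p19Arf and the downstream start gives p16Ink4a. Each window runs from 250 bases before to 50 after a RefSeq start, 5′ to 3′ on the gene's strand, in GRCm38.p6. Windows were found for 6 of the 9 genes, 8 windows in all. Capitals mark matches, on either strand, to any of 7 motifs searched.
Cdkn2a upstream start, chr4:89294570-89294869, minus strand: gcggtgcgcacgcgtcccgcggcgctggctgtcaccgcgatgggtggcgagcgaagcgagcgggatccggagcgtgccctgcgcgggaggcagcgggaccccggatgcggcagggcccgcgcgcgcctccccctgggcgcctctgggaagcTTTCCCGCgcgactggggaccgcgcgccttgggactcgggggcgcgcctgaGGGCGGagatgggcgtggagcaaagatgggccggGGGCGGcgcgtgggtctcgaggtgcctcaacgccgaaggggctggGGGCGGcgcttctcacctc
Cdkn2a downstream start, chr4:89282143-89282442, minus strand: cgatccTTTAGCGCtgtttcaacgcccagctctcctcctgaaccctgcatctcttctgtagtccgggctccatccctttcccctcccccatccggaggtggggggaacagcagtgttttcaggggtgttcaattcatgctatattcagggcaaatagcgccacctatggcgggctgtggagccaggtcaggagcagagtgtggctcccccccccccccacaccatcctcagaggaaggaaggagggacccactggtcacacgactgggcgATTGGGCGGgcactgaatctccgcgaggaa
Cdkn1a upstream start, chr17:29090729-29091028, plus strand: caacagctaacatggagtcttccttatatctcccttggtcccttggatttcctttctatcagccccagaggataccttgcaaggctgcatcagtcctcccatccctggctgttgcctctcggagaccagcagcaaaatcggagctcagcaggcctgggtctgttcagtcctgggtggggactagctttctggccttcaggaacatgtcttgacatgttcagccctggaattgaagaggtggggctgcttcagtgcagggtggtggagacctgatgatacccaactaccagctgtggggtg
Cdkn1a downstream start, chr17:29093519-29093818, plus strand: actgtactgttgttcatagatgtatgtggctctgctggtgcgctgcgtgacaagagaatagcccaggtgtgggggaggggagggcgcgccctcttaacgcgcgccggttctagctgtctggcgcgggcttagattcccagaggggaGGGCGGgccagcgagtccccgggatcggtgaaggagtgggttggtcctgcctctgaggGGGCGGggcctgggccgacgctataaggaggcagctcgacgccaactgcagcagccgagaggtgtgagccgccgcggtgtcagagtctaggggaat
Mdm2, chr10:117710709-117711008, minus strand: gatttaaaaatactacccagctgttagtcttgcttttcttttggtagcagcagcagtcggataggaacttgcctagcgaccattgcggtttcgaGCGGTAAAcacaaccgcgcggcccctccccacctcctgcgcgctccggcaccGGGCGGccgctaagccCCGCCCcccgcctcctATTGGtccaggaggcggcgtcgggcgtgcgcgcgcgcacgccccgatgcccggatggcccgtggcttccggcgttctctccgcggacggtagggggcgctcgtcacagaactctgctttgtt

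The motifs were the GC box (GGGCGG, in 35.7% of 32851 RefSeq windows of the same length), the CCAAT box (CCAAT, 37.4%), the CHR element (TTTGAA, 17.9%), the TATA box (TATAAA, 13.6%), the AP-1 site (TGANTCA, 7.81%), the E-box (CACGTG, 7.15%) and the E2F site (TTTNNCGC, 5.17%). The p19Arf window of Cdkn2a held 3 GC boxes and 1 E2F match and was 77% G and C. The p16Ink4a window held 1 GC box and 1 CCAAT box, which share bases, and 1 E2F match. The Cdkn1a upstream window held no match to any of the 7, and its downstream window held 2 GC boxes. The Mdm2 window held 2 GC boxes, 1 CCAAT box and 1 E2F match. These matches describe letters and not binding.

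For each peak the deposited lists give the pileup, the number of tags stacked at the summit, and its fold enrichment, the pileup set against the background around the peak. The P0 libraries held 144356 (A) and 118849 (B) peaks on the reference chromosomes, and the P8 libraries 88578 (A) and 98647 (B). Depth differed as well: the genome-wide background of the peak caller, in tags per 10 kb, was 194 and 162 in the P0 libraries and 140 and 134 in the P8 libraries. A missing peak means that the caller listed none, not that the chromatin was closed. At the genome-wide background, the lowest pileup called was 6 tags in each of the 4 libraries.

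Near the 9 genes, the P0 libraries held 146 (A) and 112 (B) peaks and the P8 libraries 77 (A) and 90 (B). Both P0 libraries were above both P8 libraries, with 129 ± 24.0 peaks at P0 and 83.5 ± 9.19 at P8 (SD, n = 2 each). The ratio of 1.54 (SD 0.334) compares with 1.41 over all peaks, and it was 1.48 when each peak also had to pass at the background of the shallowest library. An exact two-sided permutation test gave p = 0.333, which is the smallest p that 2 against 2 libraries allow, so no comparison here could pass a threshold of 0.05. As a share of each library's peaks, those near the 9 genes made up 0.101% and 0.0942% at P0 and 0.0869% and 0.0912% at P8, so the shares differed far less than the counts.

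**Figure D1:**
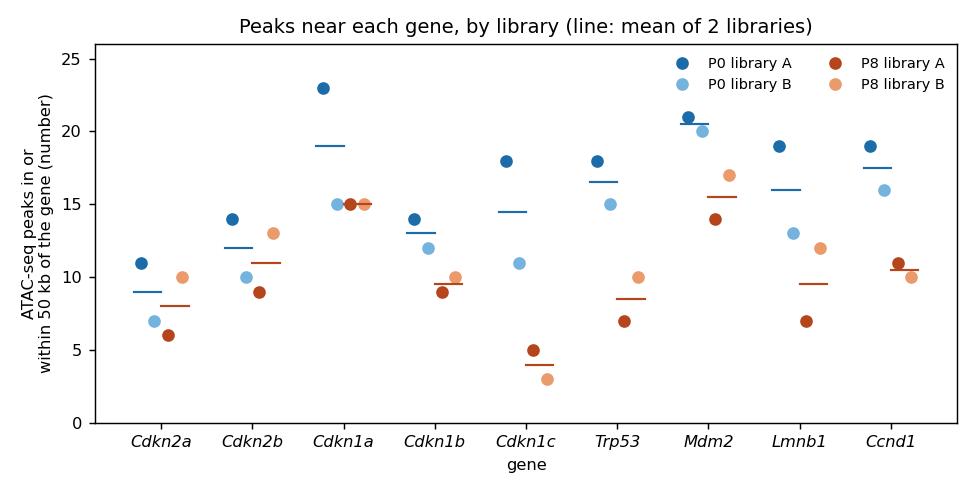
Number of ATAC-seq peaks in or within 50 kb of each gene (y axis) for the 9 genes (x axis). Points are the 4 libraries and lines the mean of the 2 libraries of a passage. Both P0 libraries lie above both P8 libraries for 6 genes, most clearly for Cdkn1c, and the passages overlap for Cdkn2a, Cdkn2b and Cdkn1a.

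Gene by gene, more peaks in both P0 than in both P8 libraries were found for 6 of the 9 genes, and more in both P8 libraries for 0. Among 20361 protein-coding genes with a peak the shares were 48.3% and 3.95%. Cdkn1c, Trp53, Lmnb1, Ccnd1, Cdkn1b and Mdm2 made up the 6, and at matched depth the same 6 were found. The exceptions were Cdkn2a, Cdkn2b and Cdkn1a, in which at least one P8 library held as many peaks as a P0 library. The median difference of mean peak number was 5 over the 9 genes and 2.5 over all coding genes with a peak.

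Of the 160 sites, 55 (34.4%) had a peak in all 4 libraries, close to 34.5% of the 140212 sites within 50 kb of any protein-coding gene. There were 21 P0-only sites (13.1%), with a peak in each P0 library and in neither P8 library, against 16.7% near all coding genes. Only 1 site (0.625%), inside Mdm2, was P8-only in the same sense, against 1.6%. The other 83 sites were mixed, and 56 of them were seen in a single library, 37 in P0 library A, the deepest one. At the 55 shared sites the fold enrichment was higher in both P0 libraries at 23 (41.8%; 50.1% of 48306 such sites near coding genes) and higher in both P8 libraries at 6 (10.9%; 11.2%). The passages overlapped at 26.

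This balance turned with the scale. When each value was divided by its library's median over the sites of all 4 libraries, 11 of the 55 (20%) were higher in both P0 libraries, against 20.9% of all such sites. Higher in both P8 libraries were then 21 (38.2%), against 34.1%. Those medians were 8.28 and 8.09 in the P0 libraries and 6.43 and 7.15 in the P8 libraries. On the deposited scale the median log2 ratio of P8 over P0 was −0.13 at the 55 sites and −0.20 at all 48306.

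**Figure D2:**
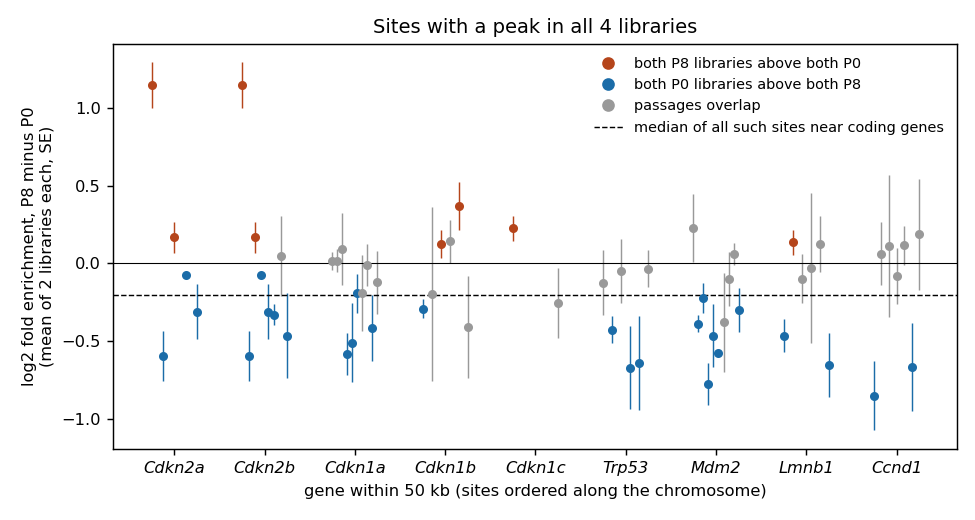
Log2 fold enrichment, P8 minus P0, at the sites with a peak in all 4 libraries, by the gene within 50 kb (x axis). Points are means of 2 libraries per passage with their SE, colours show whether the passages overlap, and the dashed line is the median of −0.20 over all such sites near coding genes. A single site, listed for both Cdkn2a and Cdkn2b, lies above 1.

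The site that stood farthest from the rest lay downstream of Cdkn2a, at chr4:89264659-89264954, 9519 bp beyond the end of the gene. Its fold enrichment was 7.86 (A) and 9.15 (B) at P0 and reached 20.1 (A) and 17.5 (B) at P8. The pileups were 18, 19, 43 and 36 tags in the same order, although the P8 libraries were the shallower ones. Both P8 libraries were thus far above either P0 library, at 18.8 ± 1.81 against 8.51 ± 0.911 (SD, n = 2 each), a difference of 1.15 ± 0.15 (SE) on the log2 scale. Scaled to the lowest background of the libraries, the pileups were 12.4 and 15.7 tags at P0 and 41.2 and 36.0 at P8. The local background was 1.42, 1.18, 1.19 and 1.11 tags, so it was near the same level in both passages. Among the 48306 sites of all 4 libraries near coding genes, 5 (0.0104%) had a larger positive log2 ratio. The exact p was 0.333. The site is intergenic in the RefSeq gene table, its nearest protein-coding gene is Cdkn2a, and no gene end lies within 1 kb of it.

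At the starts of Cdkn2a itself the passages hardly differed. Over the p19Arf start, the site chr4:89294358-89295773 had a fold enrichment of 9.53 and 9.56 at P0 and 9.02 and 9.11 at P8. These values were higher in both P0 libraries by a small margin, and after division by the library median they were higher in both P8 libraries. Over the p16Ink4a start, chr4:89281999-89282578 had 8.04 and 8.85 at P0 and 9.03 and 9.94 at P8. Here both P8 libraries were above both P0 libraries on either scale, with a log2 ratio of 0.17 ± 0.10 (SE, n = 2 each). Inside the gene, near its 3′ end, the site chr4:89276238-89276587 went the other way, with 7.30 and 5.85 at P0 and 4.25 and 4.39 at P8. In all, Cdkn2a had 11 and 7 peaks in the P0 libraries and 6 and 10 in the P8 libraries, so the passages overlapped.

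Cdkn2b, which encodes p15Ink4b, lies upstream of Cdkn2a on the same strand. The site over its start, chr4:89310455-89311402, had a fold enrichment of 10.7 (A) and 11.98 (B) at P0, and of 8.17 (A) and 10.1 (B) at P8. It was higher in both P0 libraries as deposited, and the passages overlapped after division by the library median. Upstream of the gene there were 3 further sites of all 4 libraries. All 3 lie within Gm12610, a long noncoding RNA gene that spans Cdkn2b and reaches into the site at the p19Arf start. The nearest of them, 37741 bp away at chr4:89348773-89349252, had 9.11 and 9.61 at P0 and 7.73 and 7.16 at P8. Neither Cdkn2a nor Cdkn2b had a P0-only or P8-only site, and the 5 sites of fewer than 4 libraries lay in both windows. Peak numbers within 50 kb of Cdkn2b were 14 and 10 at P0 and 9 and 13 at P8, which overlapped.

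**Figure D3:**
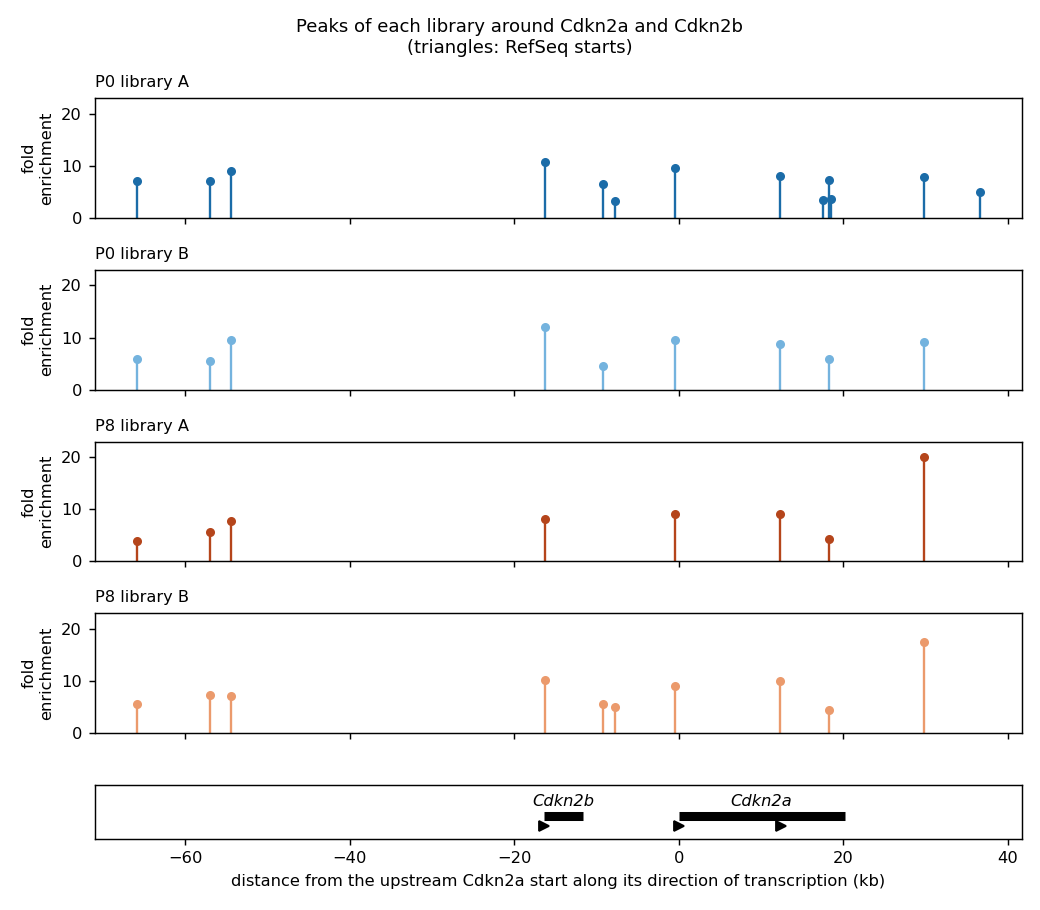
Fold enrichment of the strongest peak in each site (y axis) against distance from the upstream Cdkn2a start along its direction of transcription in kb (x axis), with 1 panel for each library. Bars show the genes and triangles the RefSeq starts. The site beyond the end of Cdkn2a reaches 20.1 and 17.5 in the P8 libraries against 7.86 and 9.15 in the P0 libraries, while the starts reach similar heights in all 4.

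Cdkn1a encodes p21, the inhibitor best known as a target of p53. Its upstream RefSeq start had no peak in any library; the nearest site began 2545 bp away, at the downstream start. There, chr17:29093524-29093963 had a fold enrichment of 5.95 and 6.83 at P0 and 6.53 and 4.79 at P8, so the passages overlapped. Its strongest site, by the mean fold enrichment over the libraries with a peak there (10.6), lay 11649 bp upstream of the gene, at chr17:29078826-29079330, with 10.7 and 11.8 at P0 and 9.16 and 10.6 at P8. A weaker site 396 bp past the end, chr17:29101118-29101467, had 3.10 and 4.11 at P0 and 3.27 and 3.28 at P8, again overlapping. Its pileups scaled to the lowest background did not overlap, at 7.61 and 9.09 tags at P0 and 13.4 and 16 at P8. The local background there was 2.88 and 1.92 tags at P0 and 3.58 and 4.18 at P8. At the downstream start the scaled pileups were instead higher at P0, at 31.8 and 35.5 tags against 28.7 and 27 at P8. Peak numbers were 23 and 15 at P0 and 15 in each P8 library, and 6 of the 26 sites were in P0 library A alone.

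Just downstream of Cdkn1a lay weak peaks of single libraries. Between 1269 and 6711 bp past the gene there were 5 sites, each in a single P8 library, 3 in library B and 2 in library A. Their fold enrichment ran from 2.93 to 3.24, and none was shared by both P8 libraries. On the far side of the flank, 35285 bp from the gene and nearest to Rab44, a site had 12.02 and 9.83 at P0, no P8 peak in library A and 5.52 in library B.

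Cdkn1b encodes p27, which holds quiescent cells out of the cycle. The site over its start, chr6:134919829-134920824, had a fold enrichment of 6.91 (A) and 7.78 (B) at P0, and of 8.15 (A) and 7.85 (B) at P8. In fold enrichment both P8 libraries were higher, as deposited and after division by the library median. The difference was 0.13 ± 0.09 (log2, SE), although the margin over P0 library B was small. Pileups scaled to the lowest background had the reverse order, at 40.1 and 42.1 tags at P0 and 32.6 and 36 at P8. The local background was 7.54 and 5.69 tags at P0 and 3.29 and 3.72 at P8. A site 18344 bp downstream, chr6:134943869-134944478, also had a higher fold enrichment in both P8 libraries. It had 6.76 and 6.11 against 5.46 and 4.54, a log2 ratio of 0.37 ± 0.15. The strongest site of the window, chr6:134897617-134898776, lay at the end of the neighbouring gene Gpr19 and had 11.0 and 11.7 at P0 and 9.53 and 8.96 at P8. Fewer peaks were nonetheless found at P8, with 14 and 12 at P0 and 9 and 10 at P8.

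Cdkn1c encodes p57, an imprinted inhibitor expressed in cartilage as chondrocytes leave the cycle. It showed the widest gap of the 9 genes in peak number: 18 and 11 peaks at P0 against 5 and 3 at P8, a ratio of 3.63. At the gene end, chr7:143460846-143461389, the fold enrichment at P0 was 6.53 and 7.87, and that at P8 was 5.31 and 6.82. By this measure the passages overlapped at the gene itself. The pileups there were 43 and 47 tags at P0 and 15 and 19 at P8. Scaled to the lowest background of the libraries, they were 29.7 and 38.8 at P0 and 14.4 and 19 at P8, without overlap. The local background was 5.74 and 5.10 tags at P0 and 2.01 and 1.93 at P8. The difference in number lay in the flanks, where 5 sites were P0-only. The nearest of these, 8929 bp from the gene at chr7:143469988-143470236 but closer to Slc22a18, had 5.60 and 6.88. Another at the end of Phlda2, chr7:143500907-143501380, had 5.87 and 7.84. The 5 sites found in P0 library A alone were a further part of the gap.

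A site at the rim of the Cdkn1c window and nearest to Kcnq1, chr7:143407840-143408521, was one of the 6 shared sites with higher values in both P8 libraries, at 7.84 and 8.56 against 6.76 and 7.27. The P8 library B peak of that site itself lies beyond 50 kb and is not among the peaks counted. It was the site just inside the limit, at 49818 bp, and the one closest outside the limit for any of the 9 genes lay 51186 bp from Cdkn1b, with 4.79 in P0 library A, no peak in P0 library B, and 3.69 and 4.77 at P8.

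Trp53 shares its upstream end with the antisense gene Wrap53, so that the sites at its start cannot be assigned to one of the pair. The site over the Trp53 start, chr11:69580122-69580465, had a fold enrichment of 5.54 and 6.24 at P0 and 4.43 and 4.32 at P8. Both P0 libraries were higher, by 0.43 ± 0.09 on the log2 scale (SE), and after division by the library median the passages overlapped. The sites on either side of it, 702 bp upstream and 797 bp into the gene, overlapped between the passages on the deposited scale.

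The P0-only site with the highest mean fold enrichment lay 134 bp past the end of Trp53, at chr11:69592007-69592619. It had a fold enrichment of 8.56 (A) and 11.3 (B) at P0, with pileups of 21 and 24 tags, and no peak in either P8 library. Its mean of 9.91 was the highest of the 21 P0-only sites, whose median was 4.94, while sites of all 4 libraries had a median of 7.20 at P0. Scaled to the lowest background, its pileups were 14.5 and 19.8 tags, above the 6 tags at which peaks were still called. The next highest mean, 9.35, belonged to the P0-only site chr10:117649933-117650294 in the Mdm2 window, with 9.54 (A) and 9.15 (B). Around Trp53 there were 18 and 15 peaks at P0 and 7 and 10 at P8, a ratio of 1.94. Of its 18 sites, 12 lay at the ends of other genes in this dense region, and the strongest, at Fxr2, overlapped between the passages with 12.4 and 12.6 at P0 and 11.2 and 13.3 at P8.

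Mdm2, the ubiquitin ligase that removes p53, had a site over its start at chr10:117709978-117711054. Its fold enrichment was 10.6 (A) and 9.91 (B) at P0, compared with 7.94 (A) and 7.72 (B) at P8, or 10.2 ± 0.477 against 7.83 ± 0.160 (SD, n = 2 each). The log2 ratio was −0.39 ± 0.05 (SE), and the passages overlapped once each value was divided by the library median. Upstream, chr10:117722982-117723477 had 9.47 and 10.0 at P0 and 5.22 and 6.23 at P8, and chr10:117731252-117731744 had 10.4 and 10.3 at P0 and 6.87 and 6.995 at P8. Both of these stayed higher at P0 on either scale, and both are nearest to the neighbouring gene Slc35e3. The strongest site of the window, 6773 bp upstream at chr10:117717531-117718077, had 11.96 and 10.6 at P0 and 9.38 and 9.92 at P8.

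Mdm2 also held the single P8-only site, inside the gene at chr10:117693326-117693638 and 4451 bp from its 3′ end. It had a fold enrichment of 4.50 (A) and 6.52 (B) at P8, with 12 and 19 tags, and no peak at P0. A nearby site within the gene, chr10:117697543-117697730, was the reverse, with 4.01 and 4.38 at P0 and no peak at P8. With 5 P0-only sites, the Mdm2 window had as many as that of Cdkn1c, but its peak numbers of 21 and 20 at P0 and 14 and 17 at P8 differed less. Most P0-only sites of the Mdm2 window were nearest to the neighbouring gene Cpm. Mdm2 was the nearest coding gene for 7 of the 26 sites in its window, and Cdkn1c for 6 of 18. A stricter limit, a −log10 q of at least 5 in the column identified as the q-value, left 0 P8-only sites near the 9 genes.

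**Figure D4:**
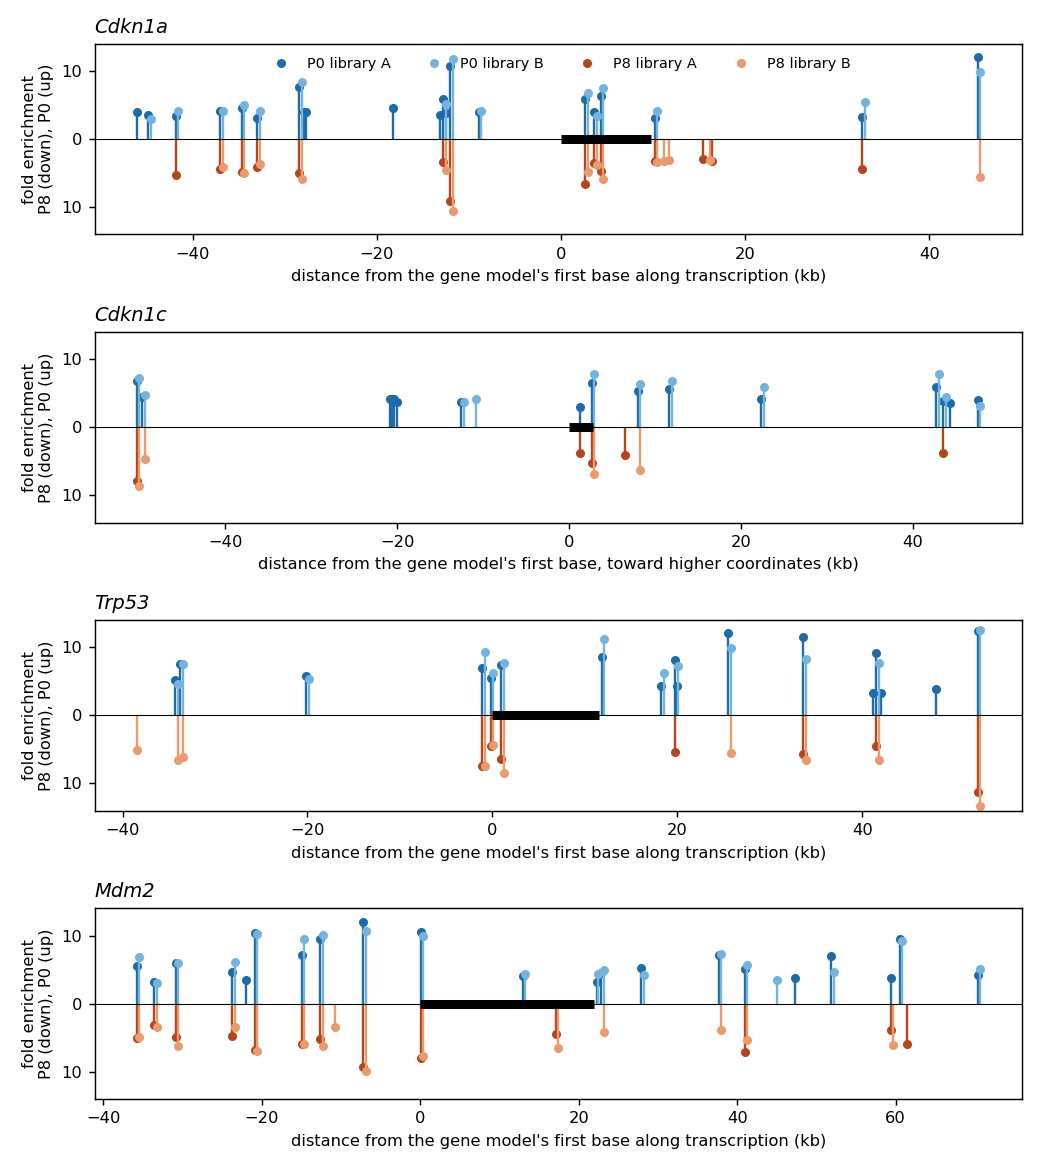
Fold enrichment of the strongest peak in each site, P0 upward and P8 downward (y axis), against distance from the first base of the gene model in kb (x axis), around Cdkn1a, Cdkn1c, Trp53 and Mdm2. Black bars are the genes and colours the 4 libraries, drawn side by side. Around Cdkn1c most sites away from the gene point upward alone, and the site past the end of Trp53, at 8.56 and 11.3, has no P8 counterpart.

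Lmnb1 encodes lamin B1, a protein of the inner nuclear envelope. The site over its lower-coordinate end, chr18:56707378-56708024, had a fold enrichment of 8.41 and 9.38 at P0 and 6.12 and 6.76 at P8. Both P0 libraries were higher on either scale, with a log2 ratio of −0.46 ± 0.11 (SE, n = 2 each). Only 334 bp into the gene, the fold enrichment of chr18:56708147-56708618 went the other way, with 4.44 and 4.06 at P0 and 4.51 and 4.82 at P8. Its pileups scaled to the lowest background did not, at 21.4 and 19.8 tags at P0 and 17.2 and 19 at P8. The local background there was 6.21 and 5.16 tags at P0 and 3.21 and 3.15 at P8. The strongest site by the mean over libraries, in the gene at chr18:56737353-56737720, overlapped between the passages with 10.3 and 8.23 at P0 and 9.48 and 10.6 at P8. A site 31435 bp outside the gene was higher than that at P0, at 13.1 and 10.9, and at P8 had no peak in library A and 4.04 in library B. Peak numbers were 19 and 13 at P0 and 7 and 12 at P8.

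Ccnd1 encodes cyclin D1, the activator among these genes. At its higher-coordinate end, chr7:144939695-144939962, the fold enrichment was low and overlapped, with 4.82 and 2.79 at P0 and 3.38 and 4.63 at P8. Its strongest site lay 24101 bp from that end, at chr7:144963932-144964308, with 12.4 (A) and 9.15 (B) at P0 and 5.93 (A) and 7.58 (B) at P8. Both P0 libraries were higher on either scale, by 0.67 ± 0.28 (log2, SE). The lowest log2 ratio of the 55 shared sites, −0.85 ± 0.22, was at the end of the neighbouring gene Fgf15, 33769 bp from Ccnd1, with 8.96 and 9.19 at P0 and 4.31 and 5.86 at P8. In all, 19 and 16 peaks were found at P0 and 11 and 10 at P8.

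**Figure D5:**
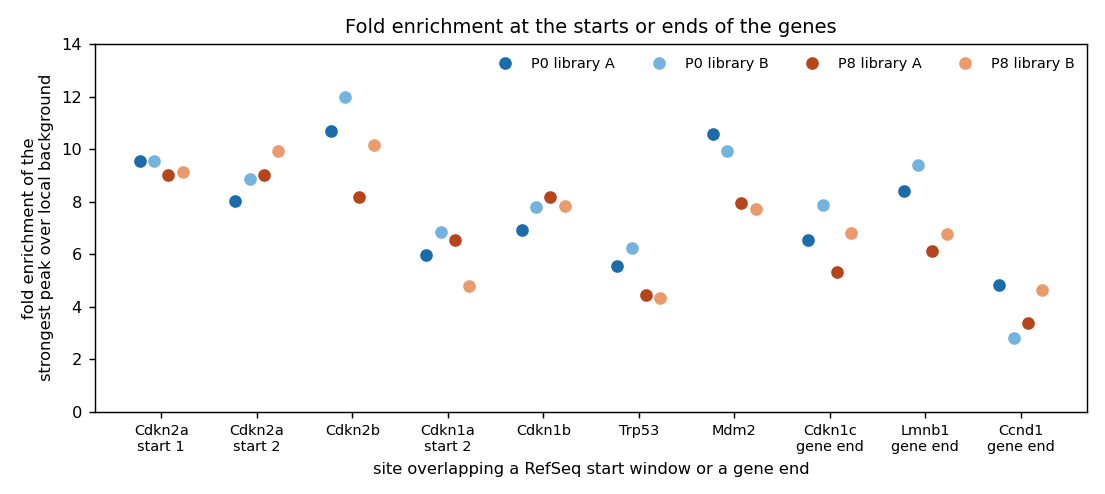
Fold enrichment of the strongest peak (y axis) in the site over each RefSeq start window, or over a gene end where no window was matched (x axis). Points are the 4 libraries. P8 libraries are the higher ones only at the downstream start of Cdkn2a and at Cdkn1b, both P0 libraries are higher at the upstream start of Cdkn2a and at Cdkn2b, Trp53, Mdm2 and Lmnb1, and the passages overlap at the other sites.

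Counted together, 19 sites lay at or within 1 kb of an end of the 9 genes, and 13 of them (68.4%) had a peak in all 4 libraries, against 56.6% of the 24351 sites so placed at any coding gene. Of the rest, 1 was P0-only, 0 were P8-only and 5 were mixed. More distally, 91 of the 160 sites lay more than 10 kb from the nearest of the 9 genes. No share near all coding genes is given here for this count. Of the 21 P0-only sites, 11 (52.4%) lay in or within 1 kb of a coding gene, against 71.5% of the P0-only sites near all coding genes, and 3 of them in or within 1 kb of one of the 9. Each of the 9 genes had a site of all 4 libraries within 1 kb of an end. Among coding genes with a peak, 63.2% had a peak of each library within 1 kb of an end. That measure is looser, because the peaks need not belong to the same site.

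The wider pathway was given by 46 further genes, all found in the annotation. More peaks in both P0 libraries were seen for 23 of them (48.3% of coding genes), more in both P8 libraries for 0 (3.95%), and the passages overlapped for 23. A peak at a gene end in all 4 libraries was present in 40 (87.0%), against 63.2% of coding genes with a peak. The median difference of mean peak number was 2.75, near the 2.5 of all coding genes. By group, 7 of 10 cyclin and kinase genes, 4 of 11 genes of the p53 pathway, 4 of 8 chromatin genes, 3 of 7 pocket protein and E2F genes, 2 of 6 secretory and other markers, 1 of 2 lamins, and both further INK4 genes, Cdkn2c and Cdkn2d, had more peaks in both P0 libraries.

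The largest differences in this list were in Cdk6, the kinase that INK4 proteins inhibit, with 44 and 31 peaks at P0 and 19 and 21 at P8. Hmga2, a chromatin protein that represses the Cdkn2a locus in young stem cells, had 29 and 20 at P0 and 12 in each P8 library. Cbx7, a Polycomb protein that represses the same locus, had 20 in each P0 library and 9 and 12 at P8. Hmga1, an architectural chromatin protein of senescent nuclei, had 20 and 13 at P0 and 6 and 10 at P8. Each of the 4 had its P0 libraries above its P8 libraries. The ranking is by the difference in peak number, which was not divided by gene length. Cdk6, at chr5:3341004-3531008, and Hmga2, at chr10:120361268-120476469, are long genes with wide windows.

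P8-only sites in or within 1 kb of a gene were found for 3 of the 46 (6.52%), against 6.13% of the 20361 coding genes with a peak. P0-only ones were found for 20 (43.5%), against 36.7%. In Cdk6 the P8-only site, chr5:3497542-3497677, had a fold enrichment of 4.87 and 4.19, and in Hmga2, chr10:120461341-120461576, 5.34 and 6.02. The 50 kb windows of the 46 genes held 854 sites, of which 12 (1.41%) were P8-only and 127 (14.9%) P0-only, against the 1.6% and 16.7% near all coding genes. The excess of P0-only over P8-only sites was thus also that of coding genes at large.

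Chondrocyte markers were open in each library, but so were nearly all fibroblast markers, so these counts do not tell the cell types apart. All 6 (Col2a1, Acan, Sox9, Col9a1, Col11a2 and Matn3) had a peak in or within 1 kb in each of the 4 libraries, with 44 and 37 sites at P0 and 25 and 36 at P8. No share over all coding genes is given here for this count. The highest fold enrichment among them was 11.4 and 12.5 at P0 and 12.7 in both P8 libraries, at Matn3. Col2a1 reached only 3.63 and 3.58 at P0 and 4.09 and 3.69 at P8. The 4 fibroblast markers had 17 and 16 sites at P0 and 14 and 12 at P8, with Thy1 lacking a peak in P8 library B. The 2 osteoblast markers had 5 sites in each P0 library and 3 and 2 at P8.

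The 3 endothelial markers had 13 and 9 sites at P0 and 5 and 9 at P8, with the highest value, 14.8 in P0 library A, at Pecam1. The 4 blood and macrophage markers had 11 and 8 sites at P0 and 4 and 6 at P8. Adgre1, which marks macrophages, had a peak only in P8 library A, whereas Cd68 had one only in the P0 libraries. The chondrocyte, fibroblast, endothelial and blood lists each had more sites in P0 library A than in any other library, as did the peaks near the 9 genes, and the osteoblast list had equal numbers in both P0 libraries. The part of other cell types in the result was not tested. An open site at a marker does not show that the gene was expressed. In these bulk samples, a change in the share of cells with a site open and a change in openness per cell cannot be told apart.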

How the data were processed

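ATAC-seq was performed on 2 libraries of each passage. Bowtie2 had been used by the authors for alignment of read pairs and MACS2, at its defaults, for peak calling in each library, and the build was mm10 per the submitters' processing notes. Versions are not given in the sources used here. The pileup deposited for a peak is the signal at the summit, in tags and with no scaling for depth. The authors also deposited the fold enrichment of this pileup over the local background, a ratio with 1 added to both terms, and the −log10 p-value and −log10 q-value of each peak within its library. A further deposited table, with log2 fold changes, p-values and FDR of the authors' own comparison, was not used.

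Libraries were told apart by the prefix of the peak names, which matches no sample title. Library totals were not used here. As a measure of depth served the genome-wide background that the deposited values imply, in tags per 10 kb. The deposited −log10 p differed from a Poisson tail of pileup and local background by at most 0.00019. The header of the p-value column is unreadable in the P0 list and that of the q-value column in the P8 list; both were identified by column order, by this tail, and by a −log10 q above the −log10 p in 0 peaks. No column of values per library was left unused (0 columns).

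Peaks on the reference chromosomes were joined into sites where they overlapped by at least 1 bp, and the strongest peak of a library gave its value in a site. Gene positions were those of the RefSeq annotation of GRCm38.p6, the assembly that is also called mm10. The table carries no strand, which was taken from the promoter windows for 6 genes; for Cdkn1c, Lmnb1 and Ccnd1 no side is called upstream. Passages were said to differ only where their libraries did not overlap, and single values were compared by exact two-sided permutation tests (smallest p 0.333). The SE of a log2 ratio is over 2 libraries per passage.

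The 9 genes, the other lists and the tests were chosen with earlier results of these data known. Named were the 9 genes with sites at their ends and starts and with their strongest site. The strongest site has the highest mean fold enrichment over the libraries with a peak in it. The P8-only site is named as well, but only some of the P0-only sites are. Of 46 other genes, those named were the 4 with the largest difference in each direction and those with a P8-only site within 1 kb. Of the last, 1 gene is counted but not reported here. The other sites named, such as those in the flank of Cdkn1a and at Fgf15, were picked after their values were seen. Alternatives were windows of 10 and 100 kb, the nearest gene, a −log10 q of at least 5, matched depth (−log10 p of at least 3.38 at the lowest background), a reciprocal overlap of 50%, division by the library median and leaving out each library. Joining and counting were tested on simulated data and were right in 100% of 20 runs. The scripts ran in Python 3.11.15 with scipy 1.17.1, pandas 2.3.3, numpy 2.4.6 and matplotlib 3.10.9.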

Additional observations from a re-analysis of the deposited data

How the results depend on the processing

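Across 61 values under 11 settings, 37 stayed within 1.5 times or 1 SD of the reported value and 24 moved. A window of 10 kb gave 8 P0-only sites, 25 of all 4 libraries and 8 of these higher at P0. A window of 100 kb gave 38, 87 and 46, and sites nearest to one of the 9 genes gave 9, 33 and 13. These settings take in fewer or more sites by construction. A −log10 q of at least 5 left 0 P8-only sites, and a reciprocal overlap of 50%, which splits joined peaks, gave 7. Division by the library median turned the balance of the shared sites, with 21 higher at P8 and 11 higher at P0 in place of 6 and 23. Leaving out each library gave a ratio of peak numbers from 1.34 to 1.75, 27 to 60 P0-only sites, 1 to 8 P8-only sites, 55 to 71 sites of all remaining libraries, 11 to 15 of them higher at P8 and 28 to 38 higher at P0. The 60 P0-only sites came without P0 library B, and the 8 P8-only sites without P8 library A. No paired analysis was possible because the peak names carry no replicate number that matches the sample titles. With 2 libraries a passage and a P8 background of 140 and 134 tags per 10 kb, weak sites could be missed at P8.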
